A study of Mus musculus with 6 samples.

Results

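10 regulators of blood and vessel development were followed through the differentiation of mouse embryonic stem cells (ESCs) towards endoderm. They were taken as a named list, without a threshold on their values but with earlier results of these data known. It held the blood factors Gata1, Gata2, Runx1, Tal1 and Lmo2 and the ETS factors Ets1, Fli1 and Erg. The endothelial surface receptors Kdr and Pecam1 completed it. All 10 were found among the 24054 genes of the expression tables. The filter on low counts kept 7 of them for testing and removed Tal1, Fli1 and Erg, which are described by their counts. The list was used to ask which of these regulators rose in cells sorted for endoderm and which stayed near the detection limit.

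The study sorted 3 populations from 1 double knock-in ESC line that is heterozygous for a Foxa2-Venus fusion and homozygous for a Sox17-Cherry fusion, so that every population carries both reporter alleles. The d0 population was ESCs at day 0, negative for both reporters and not yet exposed to the differentiation factors. The d3F population was Venus-positive and Cherry-negative mesendoderm after 3 days in monolayer with Wnt3a at 1 ng/ml and Activin A at 10 ng/ml, and d5FS was endoderm positive for both reporters after 5 days in the same factors. RNA-seq was performed on 2 independent replicates of each population, 6 samples in all, after depletion of ribosomal RNA. The gates selected on Foxa2 and Sox17 and not on any blood or endothelial protein. The ESCs had been grown on mouse fibroblast feeders. These were depleted, and the ESCs then went through a few passages on gelatine before differentiation. All values therefore come from 1 cell line in culture.

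In the embryo, blood and endothelium arise side by side from mesoderm, close to the forming endoderm. Gata2, Tal1, Lmo2 and Runx1 act together with the ETS factors Fli1 and Erg in blood stem and progenitor cells, where Tal1 and Lmo2 sit with Gata factors in one DNA-bound complex. Gata1 takes the place of Gata2 as red cells and megakaryocytes mature. Kdr, the main signalling receptor for VEGF, marks mesoderm with blood and vessel potential, and Pecam1 is an adhesion protein of endothelial junctions that is also present on ESCs. ETS factors bind a GGAA core, found in the control regions of many endothelial genes.

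Levels are given as CPM, the RSEM expected count scaled to a common library size with TMM factors, and these values were used to compare the same gene between samples. Expected counts summed to between 16457729 and 22768686 per sample, and 3 counts, taken as the detection limit for counting error, correspond to 0.122 to 0.172 CPM. Levels of different genes were compared by TPM, which is divided by length, and only within a sample, because 1228 small RNA genes took 52.4 to 75.8% of all TPM. A change was called when it was larger than 1 on the log2 scale in either direction and edgeR's quasi-likelihood test gave an adjusted p (Benjamini-Hochberg over 14539 tested genes) below 0.05. Pluripotency markers passed as lower in d5FS than in d0 for 8 of 8 genes and definitive endoderm markers as higher for 8 of 8. Of all tested genes, 10.4% passed as lower and 12.4% as higher. The endoderm list includes Foxa2 and Sox17, whose reporters were used for sorting, so the rise of these genes is no check on the labels. The study's sample list gives an mRNA library and a total RNA library for each population, without naming which replicate is which. Its methods instead describe depletion of ribosomal RNA for both replicates. Replication-dependent histone transcripts, which lack a poly(A) tail, were higher in replicate 2 of each population, with 30830 against 55980 CPM for d0, 30720 against 39440 for d3F and 12060 against 25650 for d5FS, and the part of this difference in the gaps between replicates given below was not tested.

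From d0 to d3F, 2 of the 7 tested regulators passed, Runx1 as higher and Pecam1 as lower, beside 4.7% of all tested genes (2.8% higher and 1.9% lower). From d0 to d5FS, 3 passed, Gata1 and Runx1 as higher and Pecam1 as lower, beside a background of 22.8% (12.4% higher and 10.4% lower). From d3F to d5FS, edgeR called 0 of the 7 (background 1.54%, with 1.08% higher and 0.461% lower). An unadjusted edgeR p under 0.05 was found for 3 of the 7 and for 2635 of all tested genes (18.1%). The DESeq2 Wald test called 2, Runx1 and Kdr, among 1057 genes in all. The filter needs counts in at least 2 samples, so a regulator silent in most samples could enter the test only through the population where it was high, and the 7 are not the whole list. Their median log2 fold change was 2.38, 0.69 and -0.27 in d0 to d3F, d3F to d5FS and d0 to d5FS, where all tested genes had medians of -0.01, 0.01 and 0.02. The 3 comparisons share samples and are not independent of each other.

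**Figure D1:**
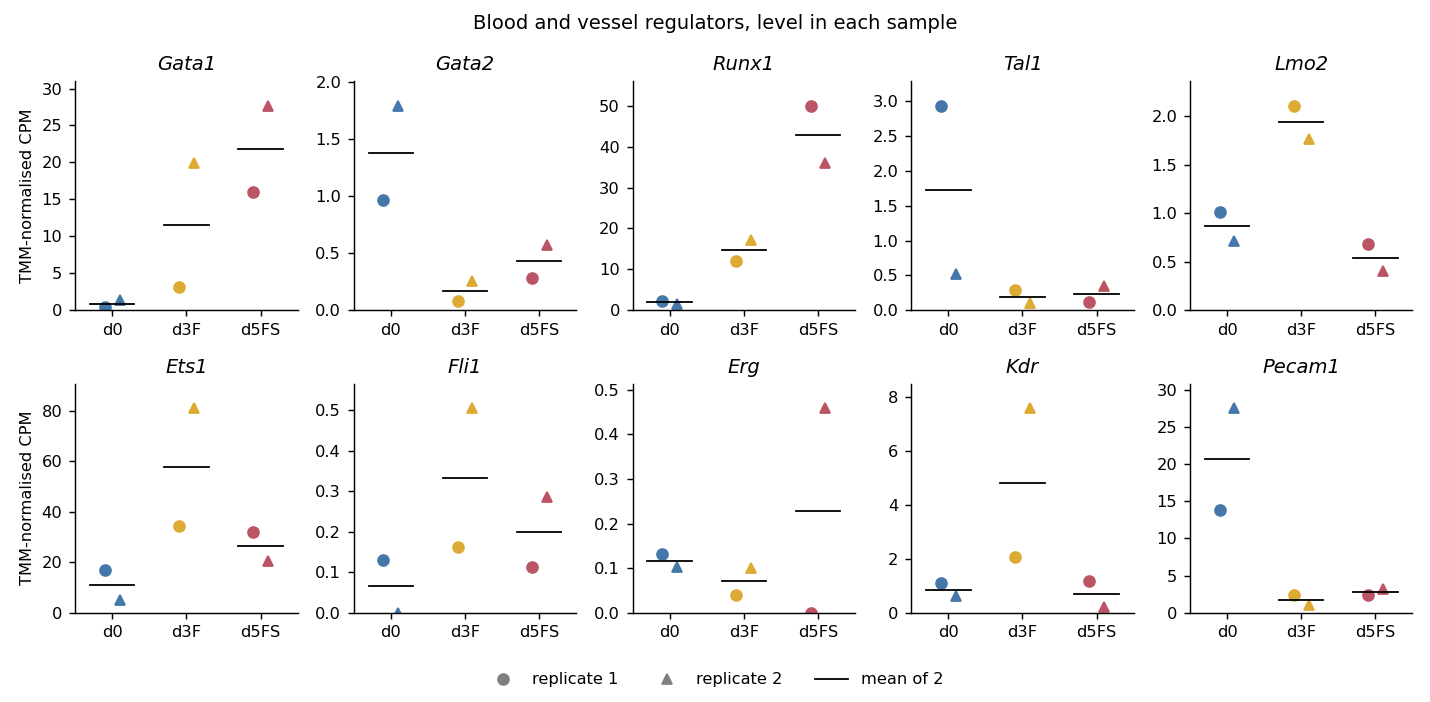
TMM-normalised CPM of each of the 10 regulators (vertical axes, each starting at 0 and scaled to its own gene) in d0, d3F and d5FS, with circles for replicate 1, triangles for replicate 2 and a line at the mean of 2. Gata1 and Runx1 reach more than 15 CPM in both d5FS samples, Pecam1 is highest in d0, and Fli1 and Erg stay at or under 0.505 CPM in every sample.

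Runx1, the factor required for blood stem cells to emerge from endothelium, was higher in mesendoderm and in endoderm than in ESCs. It was at 2.28 and 1.59 CPM in the d0 samples, 12.1 and 17.2 CPM in d3F, and 50.04 and 35.9 CPM in d5FS. The replicates of the 3 populations did not overlap, and the order d0, d3F, d5FS held for every sample. The RNA is from bulk populations, where fewer cells with a transcript and less of it per cell cannot be told apart. The log2 fold change was 2.91 ± 0.394 (SE) from d0 to d3F (edgeR adjusted p = 0.0105) and 4.46 ± 0.416 from d0 to d5FS (edgeR adjusted p = 0.00144), a 22.1-fold difference. The step from d3F to d5FS, at 1.55 ± 0.362, did not pass (edgeR adjusted p = 0.0805), but did with the DESeq2 Wald test (adjusted p = 0.00592), with no filter and in a fit of only these 2 populations (1.56, edgeR adjusted p = 0.0489). The d0 to d3F call was lost without replicate 2 of d3F (log2 fold change 2.65, edgeR adjusted p = 0.0576), in a fit that called 97 genes in all, and the d0 to d5FS call was kept in every alternative run. Runx1 lies at chr16:92601466-92826149 on the minus strand (GRCm38, GENCODE M21). An antisense gene, Gm26626, shares 106 exonic bases with it, and because the library kit does not mark strand, reads from the shared bases cannot be told apart.

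Gata1, the master factor of red cells and megakaryocytes, was higher in endoderm than in ESCs but differed widely between the 2 mesendoderm samples. Its level was 0.395 and 1.33 CPM in d0, 3.17 and 19.9 CPM in d3F, and 16.0 and 27.7 CPM in d5FS. Both d5FS samples lay above both d0 samples, whereas d3F replicate 2 lay between the d5FS samples and d3F replicate 1 far below them. In counts, d0 held 9 and 26 reads and d5FS held 282 and 483. The difference from d0 to d5FS was 25.5-fold (log2 fold change 4.67 ± 0.952 SE, edgeR adjusted p = 0.0125), and it was lost without replicate 2 of d5FS (4.23, edgeR adjusted p = 0.0517). From d0 to d3F the log2 fold change of 3.75 ± 0.924 missed the threshold (edgeR adjusted p = 0.0577), but passed in the DESeq2 Wald test (3.71, adjusted p = 1.82e-05), in a Wald test of DESeq2 for changes larger than 1 on the log2 scale (adjusted p = 0.0111), and with no filter on low counts. It was 4.54 (edgeR adjusted p = 0.0136) without d3F replicate 1 and 1.90 (edgeR adjusted p = 0.344) without d3F replicate 2. Gata1 lies at chrX:7959260-7978071 on the minus strand and was higher in replicate 2 than in replicate 1 of every population, as the histone transcripts were. The d3F samples also differed in summed markers, replicate 1 against replicate 2. Pluripotency markers were at 1491 against 768.9 CPM and definitive endoderm markers at 171.0 against 270.2, while mesendoderm markers were at 559.2 against 539.0. The part of library type or of these markers in the Gata1 gap was not tested.

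The promoter sequences of the risers Gata1 and Runx1 and of Kdr, the VEGF receptor whose differences did not pass, are shown to place these genes on the genome and to show what letters precede their starts. They are the bases before RefSeq starts on GRCm38.p6, read 5′ to 3′ on the minus strand, the strand of all 3 genes, with ETS letters (CCGGAA or AGGAAG, either strand) in capitals. Entries were matched for 6 of the 10 genes, and exonic bases of GENCODE M21 were left out, 75 from the first Runx1 start and 3 from Kdr.
Gata1, chrX:7967911-7968160: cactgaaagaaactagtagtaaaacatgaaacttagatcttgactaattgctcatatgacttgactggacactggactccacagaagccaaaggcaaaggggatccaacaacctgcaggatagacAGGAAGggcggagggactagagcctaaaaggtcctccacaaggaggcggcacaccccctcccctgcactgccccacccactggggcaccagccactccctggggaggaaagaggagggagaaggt
Runx1 first start, chr16:92826150-92826324: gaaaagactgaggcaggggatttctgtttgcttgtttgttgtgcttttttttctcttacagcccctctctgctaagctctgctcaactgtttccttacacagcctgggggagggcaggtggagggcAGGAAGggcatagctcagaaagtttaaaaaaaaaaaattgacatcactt
Runx1 second start, chr16:92697330-92697579: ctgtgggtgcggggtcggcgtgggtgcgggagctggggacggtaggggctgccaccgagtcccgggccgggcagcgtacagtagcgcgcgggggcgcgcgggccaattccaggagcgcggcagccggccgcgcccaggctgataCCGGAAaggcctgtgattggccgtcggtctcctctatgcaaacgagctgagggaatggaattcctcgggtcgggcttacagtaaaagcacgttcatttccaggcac
Kdr, chr5:75978459-75978705: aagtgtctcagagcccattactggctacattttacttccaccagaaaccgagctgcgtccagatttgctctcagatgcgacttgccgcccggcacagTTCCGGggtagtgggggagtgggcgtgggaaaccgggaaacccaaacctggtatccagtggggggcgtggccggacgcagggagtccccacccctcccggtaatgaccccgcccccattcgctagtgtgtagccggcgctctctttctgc

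Each of these 4 windows, chosen after the letters had been searched, held the ETS letters once, 125 bases before the start in Gata1, 124 and 106 in the windows of Runx1 and 153 in Kdr. Of all 11 windows matched to the 6 regulators, 5 held them, and none of those of Gata2 and Tal1 did. Over all 32851 promoter windows of 250 bases, 38.2% held them. E-box letters (CAGCTG or else CAGGTG or else CAGATG), the kind Tal1 and its partners bind, were found in the first Runx1 window, 136 bases before the start, and in Kdr, 179 bases before it, beside 38.1% of all windows. GATA letters (AGATAA or TGATAA) were in neither Gata1 nor Runx1 nor Kdr windows and in 16.6% of all windows, and RUNX letters (TGTGGT or TGCGGT) and forkhead letters (TGTTTAC or TATTTAC) stood in none of the 4 windows either, against 18.6% and 5.76%. Matches are letters and not sites, and the gene tables do not tell which Runx1 start was in use.

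Gata2, the partner of Tal1 and Lmo2 in early blood progenitors, stayed low throughout (chr6:88193891-88207032). It measured 0.965 and 1.79 CPM in d0, 0.0812 and 0.253 CPM in d3F, and 0.284 and 0.573 CPM in d5FS. The d0 samples were the highest and the d3F samples straddled the detection limit. The log2 fold change from d0 to d3F was -3.04 ± 0.819 (SE, edgeR adjusted p = 0.0734). This difference passed with no filter on low counts (edgeR adjusted p = 0.0188) and with the replicate number as a block (edgeR adjusted p = 0.0387). It did not pass in the DESeq2 Wald test (adjusted p = 0.0675) or in a fit of only these 2 populations (edgeR adjusted p = 0.0871). From d0 to d5FS the log2 fold change was -1.67 ± 0.749 (edgeR adjusted p = 0.137). Gata1 and Gata2, which replace each other in maturing red cells, thus had their values ordered in opposite ways between d0 and d5FS here, with the difference of Gata2 not passing the test.

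Tal1, the helix-loop-helix factor that sets up the blood and endothelial programme, was not seen to rise (chr4:115056426-115071755). Its counts were 67 and 10 for d0, 7 and 2 for d3F, and 2 and 6 for d5FS, or 2.94, 0.513, 0.284, 0.101, 0.113 and 0.344 CPM. Replicate 1 of d0 alone held most of its reads. A fit without the filter called more genes in all, 1933 against 683 from d0 to d3F and 4495 against 3313 from d0 to d5FS. In that fit Tal1 passed as lower in d3F (edgeR adjusted p = 0.00873) and in d5FS (edgeR adjusted p = 0.00847). Lmo2, the adaptor that joins Tal1 to Gata factors (chr2:103957986-103981878), was at 1.009 and 0.718 CPM in d0, 2.11 and 1.77 CPM in d3F, and 0.681 and 0.401 CPM in d5FS. The d3F samples were the highest, but none of its 3 comparisons passed, with edgeR adjusted p = 0.310, 0.167 and 0.458 for d0 to d3F, d3F to d5FS and d0 to d5FS. So of the 3 factors that share a complex in blood progenitors, Gata2, Tal1 and Lmo2, each stayed under 3 CPM in every sample, while Runx1 and Gata1 rose from d0 to d5FS. CPM is not divided by length. In TPM, Lmo2 was at 1.02 and 0.52 in d3F beside Runx1 at 1.21 and 1.02. In d5FS it was at 0.24 and 0.08 TPM beside Runx1 at 3.39 and 1.55.

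Ets1 was the only one of the 3 ETS regulators well above the detection limit. It is a broadly used ETS factor of endothelium and lymphocytes, at chr9:32636221-32757820. Its level was 16.9 and 5.13 CPM in d0, 34.2 and 80.9 CPM in d3F, and 31.9 and 20.6 CPM in d5FS. Both d3F samples exceeded all others, and both d5FS samples lay above the d0 samples, the nearest pair being 20.6 and 16.9 CPM. The log2 fold change was 2.38 ± 0.625 (SE) from d0 to d3F (edgeR adjusted p = 0.0684) and 1.25 ± 0.607 from d0 to d5FS (edgeR adjusted p = 0.167), and neither passed. Single libraries moved both values in either direction. Without d0 replicate 1 they were 3.49 (edgeR adjusted p = 0.0204) and 2.34 (edgeR adjusted p = 0.0313). Without d3F replicate 2 the first was 1.64 (edgeR adjusted p = 0.382), and without d0 replicate 2 the second was 0.64 (edgeR adjusted p = 0.467). The DESeq2 Wald test also passed Ets1 from d0 to d3F.

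Fli1 and Erg, the ETS factors most closely tied to blood stem cells and endothelium, were at the limit of detection. Fli1 had 3 and 0 counts for d0, 4 and 10 for d3F and 2 and 5 for d5FS. Erg had 3 and 2 counts for d0, 1 and 2 for d3F and 0 and 8 for d5FS. The highest value of either gene was 0.505 CPM, for Fli1 in d3F replicate 2, and no difference between populations was detectable at this depth. Fli1 lies at chr9:32422204-32542861 and Erg at chr16:95359169-95586593, on the chromosomes of Ets1 and Runx1.

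Kdr (chr5:75932827-75978458) was low, and its values were highest in mesendoderm. It measured 1.10 and 0.615 CPM in d0, 2.07 and 7.58 CPM in d3F, and 1.19 and 0.229 CPM in d5FS. Both d3F samples lay above all others, by far in replicate 2 and narrowly in replicate 1. Neither the log2 fold change of 2.48 ± 0.876 (SE) into d3F (edgeR adjusted p = 0.152) nor that of -2.75 ± 0.899 out of it (edgeR adjusted p = 0.164) passed, although both did with the DESeq2 Wald test (adjusted p = 0.0433 and 0.0276) and with no filter. Without d3F replicate 2 they were 1.27 and -1.54 (edgeR adjusted p = 0.742 and 0.595). Between d0 and d5FS the value was -0.27 ± 0.905 (edgeR adjusted p = 0.852), and its sign depended on single libraries, at 0.19 without d0 replicate 1 and 0.48 without d5FS replicate 2.

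Pecam1 (chr11:106654217-106750628) was the regulator that passed as lower in the fit used here. It was at 13.8 and 27.5 CPM in d0, 2.39 and 1.11 CPM in d3F, and 2.44 and 3.27 CPM in d5FS. The d0 samples lay above all others without overlap, and d3F and d5FS lay close together. The log2 fold change was -3.54 ± 0.555 (SE) from d0 to d3F (edgeR adjusted p = 0.0148) and -2.85 ± 0.538 from d0 to d5FS (edgeR adjusted p = 0.00966). Each call depended on 1 library, being lost without d3F replicate 2 (-3.09, edgeR adjusted p = 0.102) and without d5FS replicate 1 (-2.66, edgeR adjusted p = 0.0745). The step from d3F to d5FS was 0.69 ± 0.530 (edgeR adjusted p = 0.535).

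**Figure D2:**
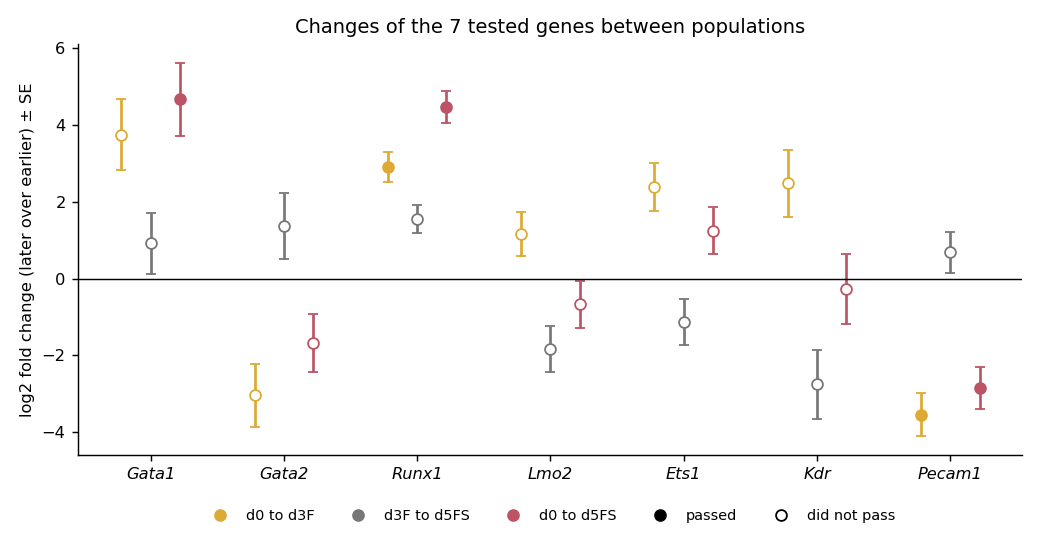
log2 fold change (later over earlier population, edgeR) of the 7 tested regulators with its SE, for d0 to d3F, d3F to d5FS and d0 to d5FS. Filled points passed both thresholds, and these were Runx1 and Pecam1 from d0 to d3F and Gata1, Runx1 and Pecam1 from d0 to d5FS.

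Compared per length, none of the 10 was abundant. Gata2, Tal1, Fli1, Erg and Kdr stayed under 1 TPM in every sample, 5 of 10, as did 12502 of the 24054 genes. In d0 Pecam1 led the list at 2.96 and 2.77 TPM. In d3F Ets1 led at 4.75 and 6.73 TPM, followed by Gata1 at 1.25 and 4.71 and Runx1 at 1.21 and 1.02 TPM. In d5FS Gata1 led at 4.31 and 4.80 TPM, with Runx1 at 3.39 and 1.55 TPM and Ets1 at 3.03 and 1.26 TPM close to each other. Gata1 was thus at about the TPM of Gata6 in the same d5FS samples (4.05 and 3.93 TPM), and below Gata4 (22.4 and 31.1 TPM), both factors of endoderm.

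Their own families put the risers in context. Of the other Gata factors, Gata4, Gata6 and Gata3 were tested and all 3 passed as higher in d5FS than in d0, where 12.4% of all tested genes did, and Gata5 stayed under 1 TPM. Gata6 was at 0.395 and 0.564 CPM in d0, 16.7 and 24.3 CPM in d3F and 26.4 and 39.8 CPM in d5FS, and Gata4 at 1.45 and 2.87, 16.6 and 79.2, and 156.0 and 335.4 CPM. Gata4 and Gata6, the Gata factors of endoderm, passed already from d0 to d3F at log2 fold changes of 4.47 and 5.41 (edgeR adjusted p = 0.0231 and 0.00269), the call of Gata4 being lost without d0 replicate 2 or d3F replicate 2 (edgeR adjusted p = 0.0567 and 0.0710). Gata3, a factor of trophoblast and lymphocytes, came later, from 0.487 and 0.808 CPM in d3F to 9.19 and 16.2 CPM in d5FS (log2 fold change 4.29, edgeR adjusted p = 0.0210), a call lost on leaving out any one d3F or d5FS sample (edgeR adjusted p = 0.0635 to 0.184). So Gata2 was the tested Gata gene whose d5FS values lay below those of d0.

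The other Runx genes had few reads. Runx2, the bone factor, had 0 and 3 counts for d0, 1 and 4 for d3F and 4 and 12 for d5FS, and Runx3 had 22 and 4, 6 and 8, and 1 and 4. Both stayed under 1 TPM in every sample and were removed by the filter, so that their differences were not tested in the fit used here. Cbfb, the partner that Runx proteins need to bind DNA firmly, was present throughout at 73.7 to 126.1 CPM, with a log2 fold change of 0.36 ± 0.297 (SE) from d0 to d5FS (edgeR adjusted p = 0.412).

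Among 23 other ETS factors, 19 were tested, and 2 passed as higher and 4 as lower from d0 to d5FS, beside 12.4% higher and 10.4% lower over all tested genes. Ehf and Spdef, ETS factors of epithelia, were the 2 that rose. Ehf went from 4 and 3 counts in d0 to 86 and 127 in d5FS (edgeR adjusted p = 0.00221) and had already passed in d3F with 98 and 94 counts (edgeR adjusted p = 0.0103), and Spdef went from 3 and 3 to 49 and 53 (edgeR adjusted p = 0.00664). No fold is given against such low d0 counts. Etv5, a target of FGF signalling with high levels in ESCs, fell from 236.7 and 376.6 CPM in d0 to 22.2 and 40.0 CPM in d5FS (log2 fold change -3.30 ± 0.450 SE, edgeR adjusted p = 0.00343), and Etv1 from 16.7 and 9.64 to 2.72 and 0.573 CPM (edgeR adjusted p = 0.0328), a call lost without d0 replicate 1 or d5FS replicate 2. Like Fli1 and Erg, 9 of these 23 stayed under 1 TPM in every sample, as did 12502 of all 24054 genes. Of the other Lmo genes, Lmo4 was at 27.98 and 11.8 CPM in d0 and 8.51 and 15.7 CPM in d5FS (edgeR adjusted p = 0.338).

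**Figure D3:**
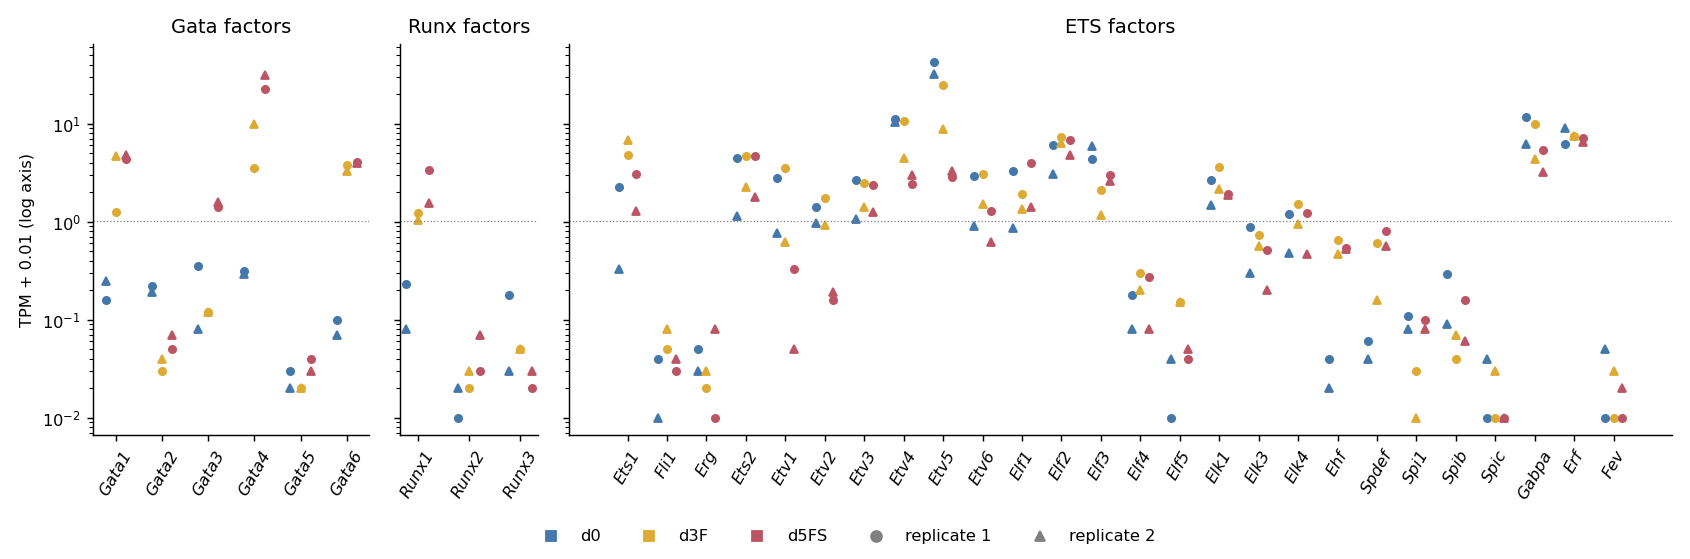
TPM + 0.01 (log axis) of all listed Gata, Runx and ETS factors in each sample, with colour for the population and shape for the replicate, and a dotted line at 1 TPM. Gata1, Gata4 and Gata6 stand above the line in d3F and d5FS, Runx1 does so among the Runx genes, and of the ETS regulators listed first Ets1 lies above it in d3F and d5FS while Fli1 and Erg stay below 0.1 TPM. TPM is meant for comparing genes within a sample.

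Among 16 further haematopoietic transcription factors and partners, 12 were tested and 9 of the 16 stayed under 1 TPM in every sample, as did 12502 of all 24054 genes. From d0 to d5FS, 1 passed as higher and 1 as lower, or 2 of 12 beside 22.8% of all tested genes. Zfpm1, the cofactor that Gata1 binds in red cells, rose from 4.25 and 3.18 CPM in d0 through 8.85 and 15.9 CPM in d3F to 25.8 and 33.1 CPM in d5FS (log2 fold change 2.98 ± 0.422 SE, edgeR adjusted p = 0.00390). Its samples followed the same order of populations as Runx1. Myb, a factor of blood progenitors, fell from 8.07 and 7.54 CPM in d0 to 0.511 and 1.78 CPM in d5FS (log2 fold change -2.76, edgeR adjusted p = 0.0231), which was lost without d5FS replicate 1 (-2.14, edgeR adjusted p = 0.115). Spi1, the myeloid ETS factor, had 0 to 5 counts in every sample.

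Of 14 blood cell products and surface proteins 6 were tested and 11 stayed under 1 TPM in every sample, as did 12502 of all 24054 genes. From d0 to d5FS 1 passed as higher and 1 as lower, where 12.4% and 10.4% of all tested genes did. Kit, the stem cell factor receptor, which germ cells and other tissues also use, was present in every sample, at 7.54 and 38.4 CPM in d0 and 34.04 and 38.1 CPM in d5FS (edgeR adjusted p = 0.475). The globins Hbb-bh1, Hba-x and Hba-a2 and the leukocyte protein Cd48 had 0 counts in all 6 samples, and Ptprc, the pan-leukocyte surface protein CD45, had 0 to 4. Alas2, the heme synthesis enzyme of red cells, was the gene that rose, from 5 and 0 counts in d0 through 8 and 17 in d3F to 38 and 59 in d5FS (edgeR adjusted p = 0.0187), at no more than 0.57 TPM, and the call was lost without either d5FS sample (edgeR adjusted p = 0.0654 and 0.0797). Hba-a1, an adult alpha globin, passed as lower in d5FS (edgeR adjusted p = 0.0424), from 112 and 12 counts to 3 and 3, and without d0 replicate 1 it did not pass (edgeR adjusted p = 0.288). Gata1 thus rose in samples in which the globins tested or counted gave 3 reads or fewer at d5FS.

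The vessel lists moved in both directions. Of 14 endothelial transcription factors 12 were tested, with 3 higher and 2 lower from d0 to d5FS, beside 12.4% and 10.4% of all tested genes. The 3 were Nr2f2, a venous factor, with 2 and 2 counts in d0 against 46 and 100 in d5FS (edgeR adjusted p = 0.00407), Prox1, a lymphatic and liver factor, at a log2 fold change of 3.72 (edgeR adjusted p = 0.00641), and Hhex, an early factor of both endothelium and anterior endoderm, at 3.05 (edgeR adjusted p = 0.00543). Klf2, a flow-responsive factor that is also high in ESCs, fell by 3.76 on the log2 scale (edgeR adjusted p = 0.00470), and Etv2, the ETS factor that starts the endothelial programme, had 41 and 51 counts for d0, 54 and 38 for d3F and 5 and 9 for d5FS (edgeR adjusted p = 0.0248). The Etv2 call was lost on leaving out any one sample but d0 replicate 1. Prox1 also passed from d0 to d3F, a call that was likewise kept without d0 replicate 1 and lost in the other 5 fits without a single sample, and Klf2 passed there too, a call lost without d0 replicate 2 or d3F replicate 2.

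Of 20 endothelial receptors and surface proteins 16 were tested, and 3 passed as higher and 6 as lower from d0 to d5FS. Beside these counts, all tested genes had 12.4% higher and 10.4% lower. A VEGF receptor, a VEGF co-receptor and Thbd were the 3 that were higher. Flt1, VEGF receptor 1, went from 9.12 and 3.43 CPM in d0 to 68.5 and 91.0 CPM in d3F and 78.7 and 104.3 CPM in d5FS (log2 fold change 3.86 ± 0.495 SE, edgeR adjusted p = 0.00302). Nrp1, the neuropilin co-receptor of VEGF and semaphorins, went from 2.41 and 0.974 CPM to 19.8 and 90.04 CPM in d3F and 37.0 and 57.8 CPM in d5FS (4.79 ± 0.794, edgeR adjusted p = 0.00614). Both passed already at d3F (edgeR adjusted p = 0.0103 and 0.0155), the Nrp1 call being lost there without d0 replicate 2 (edgeR adjusted p = 0.0558). The other VEGF receptor, Flt4, and the other neuropilin, Nrp2, did not pass, with log2 fold changes of 1.23 ± 0.566 and 0.28 ± 0.440 (edgeR adjusted p = 0.146 and 0.677). Per length, Flt1 in d5FS was at 5.94 and 5.08 TPM and Nrp1 at 2.97 and 2.99 TPM, against 0.1 and 0.01 TPM for Kdr. Thbd, the thrombin receptor thrombomodulin, which is also a parietal endoderm marker, was at 2.63 and 1.33 CPM in d0 and 14.6 and 4.81 CPM in d5FS (log2 fold change 2.28, edgeR adjusted p = 0.0303), a call lost without d0 replicate 2 or d5FS replicate 1 (edgeR adjusted p = 0.106 and 0.213).

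The 6 that passed as lower, the direction of Pecam1, included Esam, Cd34 and Eng. Esam, an adhesion protein of endothelial junctions, had 40 and 85 counts for d0, 1 and 2 for d3F and 2 and 0 for d5FS (edgeR adjusted p = 0.0260 and 0.00973), and Cd34 had 201 and 32 in d0 against 0 and 8 in d5FS (edgeR adjusted p = 0.0322). Eng, a TGF-beta co-receptor of vessels, fell from 21.6 and 12.9 CPM in d0 to 3.61 and 2.12 in d3F and 2.04 and 0.917 in d5FS (log2 fold change to d5FS -3.54 ± 0.568 SE, edgeR adjusted p = 0.00547). Their calls from d0 to d3F, for Esam and Eng, were each lost in 3 of the fits without a single sample, that of Esam to d5FS without d5FS replicate 2 (edgeR adjusted p = 0.0553), and that of Cd34 without d0 replicate 1 or d5FS replicate 1. Cdh5, the VE-cadherin that defines endothelium, had 1 and 2 counts for d0, 7 and 27 for d3F and 0 and 8 for d5FS, and Emcn had 1 count in all samples together.

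Of the 7 VEGF and angiopoietin ligands 6 were tested, and 3 passed as higher from d0 to d5FS, beside 12.4% of all tested genes. Vegfa, the ligand of Kdr and Flt1, was at 4.298 and 8.46 CPM in d0, 31.2 and 46.8 CPM in d3F, and 113.7 and 130.1 CPM in d5FS. No sample overlapped between populations. Its log2 fold change was 2.61 ± 0.406 (SE) from d0 to d3F (edgeR adjusted p = 0.0144), lost without d3F replicate 2 (2.30, edgeR adjusted p = 0.0833), and 4.26 ± 0.434 from d0 to d5FS (edgeR adjusted p = 0.00173). Angpt2, an antagonist ligand of the Tek receptor, rose from 2.54 and 1.38 CPM in d0 to 15.8 and 32.2 CPM in d5FS (3.60 ± 0.622, edgeR adjusted p = 0.00712), and Angpt1, the agonist, had 3 and 3 counts in d0 and 34 and 25 in d5FS (edgeR adjusted p = 0.0184), a call that each fit without a d0 or d5FS sample lost (edgeR adjusted p = 0.0575 to 0.0995). The endoderm samples thus had more Vegfa and Angpt2 RNA than ESCs, and Kdr stayed at 1.19 CPM or less in them.

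**Figure D4:**
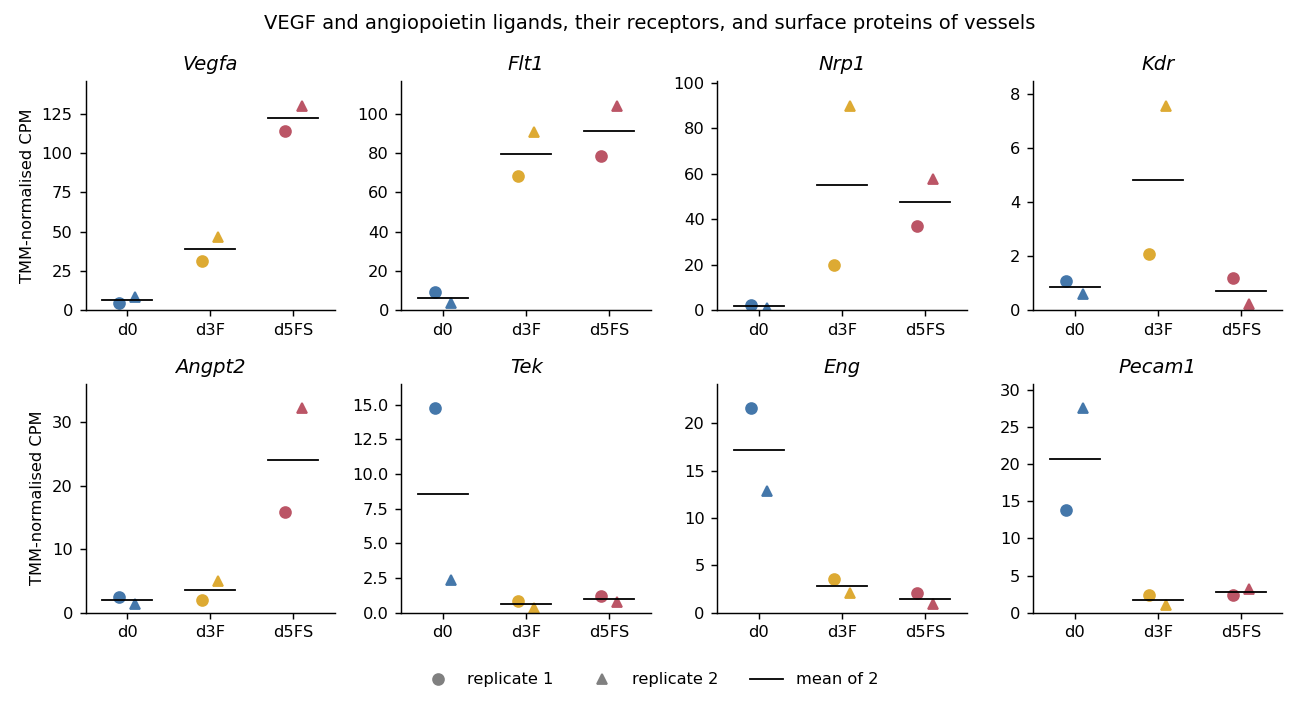
TMM-normalised CPM (each axis starting at 0, scaled to its own gene) of VEGF and angiopoietin ligands, receptors and vessel surface proteins, with circles for replicate 1, triangles for replicate 2 and a line at the mean of 2. Vegfa, Flt1, Nrp1 and Angpt2 are higher in both d5FS samples than in d0, Kdr peaks in d3F replicate 2 at 7.58 CPM, and Tek, Eng and Pecam1 are highest in d0.

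Markers of other cell types were followed beside the risers. The blood list summed to 1.87 to 4.09 CPM over its 7 genes in every sample. All 7 stayed under 1 TPM in every sample, as did 12502 of all 24054 genes. Hbb-bh1 and Hba-x were at 0 counts and Klf1, a red cell factor, at 10 to 32 counts. In TPM the list summed to 0.78 and 0.37 in d5FS, below Runx1 (3.39 and 1.55 TPM) and Gata1 (4.31 and 4.80 TPM) in the same samples. The endothelium list, which includes Pecam1 and Kdr, fell in its sum from 35.0 and 42.8 CPM in d0 to 8.12 and 13.04 in d3F and 5.45 and 5.73 in d5FS. Pecam1 alone was at 13.8 and 27.5 CPM of the d0 sums, and Tek at 14.7 and 2.36. Part of this fall is therefore that of Pecam1 given above, a gene also present on ESCs, and the d0 sum is no measure of endothelial cells. The fibroblast feeder list rose in its sum alongside Runx1, from 11.4 and 15.3 CPM in d0 through 32.8 and 78.1 in d3F to 234.3 and 196.3 in d5FS. Col1a2 alone was at 109.6 and 156.3 CPM of the d5FS sums. From d0 to d5FS, 4 of the list's 8 tested genes passed as higher, the matrix genes Col1a2, Postn, Col3a1 and Col1a1, beside 12.4% of all tested genes. The other 4 tested did not pass. Prrx1 went from 3 and 9 counts in d0 to 35 and 14 in d5FS (log2 fold change 2.24 ± 0.815 SE, edgeR adjusted p = 0.0797), Thy1 from 70 and 29 to 18 and 8, Twist2 from 37 and 5 to 10 and 4, and Dcn from 16 and 2 to 7 and 13. Lum, removed by the filter, had 0 or 1 count in each sample. The parietal and visceral endoderm list also rose, from 246.3 and 275.5 CPM to 1002 and 951.7 CPM. Of its 11 genes, 6 passed as higher, beside 12.4% of all tested genes. Most of the d5FS sum came from 2 of them, Sparc (617.3 and 600.3 CPM) and Col4a1 (281.4 and 210.5 CPM). Ttr, which also passed, had 0 and 3 counts in d0 and 189 and 352 in d5FS, and Afp had 3 and 1 against 108 and 441 (edgeR adjusted p = 0.00858 and 0.00302). Amn, Sox7, Plat, Lama1 (log2 fold change 0.03) and Rhox5 (-0.79) did not pass. The part of these cell types in the values of Runx1, Gata1 and Vegfa was not tested.

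**Figure D5:**
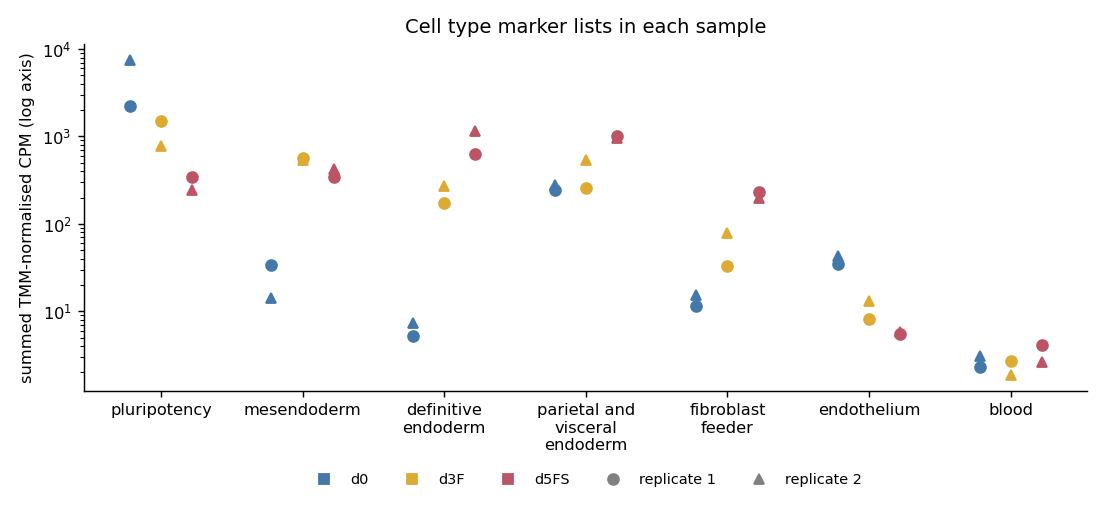
Summed TMM-normalised CPM (log axis) of 7 lists of cell type markers in each sample, with colour for the population and shape for the replicate. The endoderm and fibroblast feeder lists are highest in d5FS, the pluripotency and endothelium lists are highest in d0, and the blood list lies between 1.87 and 4.09 CPM throughout.

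The tested genes whose profiles over the 6 samples came nearest to the 3 regulators with a call were found by Euclidean distance between gene-centred log2 CPM values. For Gata1 they were Cbln1 (distance 0.654) and Cxcr4 (0.900), a chemokine receptor and marker of definitive endoderm, both with the same wide gap between the d3F samples. For Runx1 they were Ctso (0.457) and Tll1 (0.636), and Tll1 ran at 3.11 and 1.64, 12.0 and 18.3, and 38.4 and 30.2 CPM. For Pecam1 they were Arl14epl (0.459) and Abcb1a (0.510), each highest in both d0 samples. The choice of nearest genes fixes this likeness, which is a description only.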

How the data were processed

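RNA-seq of 6 samples was used, d0, d3F and d5FS with 2 replicates a population, grouped by the time point and sorting markers of their labels. The authors aligned paired-end reads to mm10 with STAR and deposited RSEM gene tables. Their methods describe ribosome-depleted TruSeq libraries (unstranded), while their sample list gives an mRNA library and a total RNA library for each population. Versions of STAR and RSEM are not given in the sources used here. The expected counts deposited by the authors estimate fragments per gene and are not normalised. TPM, as the authors deposited it, corrects for effective length and has a fixed sum per sample. The deposited FPKM values were not used, and the deposited effective lengths served to rescale TPM. Totals of expected counts ranged from 16457729 to 22768686, and detection limits of 3 counts cover counting error only.

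Counts were rounded to whole numbers and analysed with edgeR 4.0.16 in R 4.3.3: filterByExpr, TMM (factors 0.877 to 1.08), estimateDisp, and a quasi-likelihood fit of all 6 samples with a mean per population (glmQLFit and glmQLFTest, prior count 0.125, 3 residual degrees of freedom). The study's methods compare the populations with DESeq2 against a log2 fold change of 1, which was run as an alternative (DESeq2 1.42.0). Calls needed a Benjamini-Hochberg adjusted p under 0.05 over 14539 genes and an absolute log2 fold change above 1. SE was obtained from the size of the log2 fold change and the root of its F statistic. With 2 samples against 2 an exact permutation test cannot go below p = 0.33, so none was run. The p-values measure the spread between replicates of 1 line, and the part of library type in that spread was not tested. The pipeline was checked on simulated counts. Distances between profiles used log2 CPM with a prior count of 2. Gene positions are from GENCODE M21 and promoters from RefSeq (GRCm38.p6). Further software was Python 3.11.15 with numpy 2.4.6, pandas 2.3.3 and matplotlib 3.10.9, and limma 3.58.1.

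The 10 regulators, the gene lists and the markers were chosen with earlier results of these data known. All 10 were named. From each list the called genes were named, at most 4 per comparison by absolute log2 fold change, with the 2 nearest profiles of each called regulator. Other genes (among them Runx2, Runx3, Cbfb, Lmo4, Spi1, Ptprc, Kit, Flt4, Nrp2, Thbd, Prrx1, Cdh5, Emcn and Etv2) and the promoter letters were chosen after their values were seen. The alternatives were other size factors, filters, tests, the replicate number as a block, only the 2 populations compared, and each sample left out.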

Additional observations from a re-analysis of the deposited data

How the results depend on the processing

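With 2 replicates a population, the number of calls moved with most choices, and the cause was not tested. Fits with another filter, with DESeq2, with only 2 populations or without a sample tested other sets of genes than the 14539. Their counts of called genes and regulators are given without a share, so no excess of regulators is read from them. All genes called from d0 to d5FS numbered 4495 with no filter and 3994 with the DESeq2 Wald test. From d0 to d3F, where 683 genes were called, the count was 1933 with no filter on low counts, 357 with at least 10 counts in every sample, 1486 with the DESeq2 Wald test, 383 with DESeq2 against a log2 fold change of 1, 242 with edgeR's glmTreat, 430 with only the 2 populations compared, and 97 to 977 with each sample left out. From d3F to d5FS, where 224 were called, these counts were 1423, 144, 1057, 189, 70 and 529, and 0 (without d3F replicate 1) to 496. From d0 to d5FS, where 3313 were called, DESeq2 against a log2 fold change of 1 gave 1006, glmTreat 1235 and the fits without a sample 1047 to 3037. Of the regulators, 7, 2 and 5 were called in the 3 comparisons with no filter and 5, 2 and 3 with the DESeq2 Wald test, 1 was called from d3F to d5FS with only the 2 populations compared, and with a sample left out 0 to 3 were called at the first step, 0 at the second and 2 to 4 over both. Calls of regulators over all comparisons numbered 5, against 14 with no filter, 10 with the DESeq2 Wald test and 3 (without d3F replicate 2) to 7 with a sample left out. Of the single values of regulators under all alternatives, 255 kept their direction and side of the threshold, 20 passed it newly, 4 no longer passed it and 2 changed sign, both of them Kdr from d0 to d5FS, at 0.19 without d0 replicate 1 and 0.48 without d5FS replicate 2, in a range of -1.88 to 0.48 with a sample left out. Gata1 was removed by the filter of 10 counts in every sample. Of 40 calls of listed genes, 21 were lost in at least 1 fit without a sample. Rescaled by TMM, 6 in place of 5 regulators stayed under 1 TPM, Lmo2 being the sixth.

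The populations share replicate numbers, which the labels do not tie to a batch or day. With the replicate number as a block, the 3 comparisons (in the order above) called 1320, 918 and 4296 of the 14539 tested genes. Of the 7 tested regulators they called 4, 1 and 3, or 8 calls in all. The calls gained were Gata1 (log2 fold change 3.53) and Gata2 (-3.07) from d0 to d3F and Runx1 (1.53) from d3F to d5FS. The differences between same-numbered replicates correlated across genes at r = 0.314 (d0 with d3F), 0.324 (d0 with d5FS) and 0.278 (d3F with d5FS).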
